A study of Mus musculus with 4 samples.

Results

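The genes described here are 10 members of the vascular endothelial growth factor (VEGF) and Tie systems, taken by name from a table of 15746 genes: the ligands Vegfa, Vegfb and Vegfc, the VEGF receptors Kdr, Flt1 and Flt4, the neuropilins Nrp1 and Nrp2, and the receptors Tek and Tie1. They were listed for what their products do, and the question put to the data was which cells of a tendon send these signals and which receive them. The study set out to catalogue the cell types of tendon. It sequenced single cells from the Achilles tendon of male C57Bl/6 mice at 6 weeks of age in 4 libraries that form 1 untreated group, with the 3′ kit of 10x Genomics in version 3. Whether 1 mouse or several went into each library is not given in the labels, so p-values measure the spread between these 4 libraries only.

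VEGF ligands are secreted proteins that make blood and lymphatic vessels grow and leak. VEGFA acts mainly through KDR (VEGFR2), is bound more tightly but with weaker signalling by FLT1 (VEGFR1), and VEGFC acts through FLT4 (VEGFR3), the receptor known for lymphatic vessels. Neuropilins are co-receptors that hold VEGF beside these receptors and also bind class 3 semaphorins, and TEK (TIE2) with its partner TIE1 answers angiopoietins, of which ANGPT1 comes largely from the mural cells that wrap the endothelium and ANGPT2 from the endothelium itself.

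The table held 1191 cells with 11499881 unique molecular identifiers (UMIs, each marking 1 captured transcript), and the libraries held 580, 246, 256 and 109 cells with medians of 7440, 7723, 7591.5 and 8824 UMIs per cell. The authors named 13 populations: tendon fibroblasts 1 to 3, bursal fibroblasts, endothelial cells 1 to 3, pericytes, nerve cells 1 to 3, red blood cells and immune cells. These were formed from the same counts, so no test below asks whether they exist. Of the 36 cells of endothelial cells 3, 26 came from library 1, and 4 of 5 lymphatic endothelial markers were highest there. Of the 51 cells of tendon fibroblasts 3, 45 came from library 1, so both populations have a value in library 1 alone, without a replicate. No cell barcode was shared between libraries. Levels are UMIs of a gene per 1000000 UMIs (CPM, counts per that total) of all cells of a population in a library, given where it had 5 or more cells, as mean ± SD over n libraries, and they compare populations within a gene, not genes with each other.

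The 10 genes together gave 14215 UMIs. Endothelial cells held most of the receptor UMIs, and the ligand UMIs were spread over endothelial cells, pericytes and fibroblasts. The endothelial cells, 25.8% ± 6.59 of the cells (SD, n = 4 libraries), held 91.2% ± 6.35 of the Kdr UMIs, 93.6% ± 2.0 of those of Flt1, 93.1% ± 7.42 of Flt4, 90.5% ± 5.01 of Tek and 95% ± 3.0 of Tie1. Nrp1 and Nrp2 were spread more widely, with 73.9% ± 8.50 and 63.3% ± 17.8 in endothelial cells. Of the Vegfa UMIs, 25.04% ± 7.42 lay in endothelial cells, 30.5% ± 19.1 in pericytes, which made up 9.66% ± 4.25 of the cells, and 35.7% ± 30.5 in tendon fibroblasts. The tendon fibroblast share of Vegfa ran from 2.52% in library 2 to 75.8% in library 3, alongside a share of cells that ran from 5.69% to 63.3%. Red blood cells, which serve as a measure of free RNA, held 1 Vegfa, 1 Flt1 and 1 Nrp1 UMI and none of the other 7 genes in 733208 UMIs, at a median depth of 4132 UMIs per cell. That measure is limited, since the 5 red blood cell markers, 4 of them globins, took 933520 CPM in these cells. Their median was 74 genes per cell, so few of their UMIs were left for other genes.

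**Figure D1:**
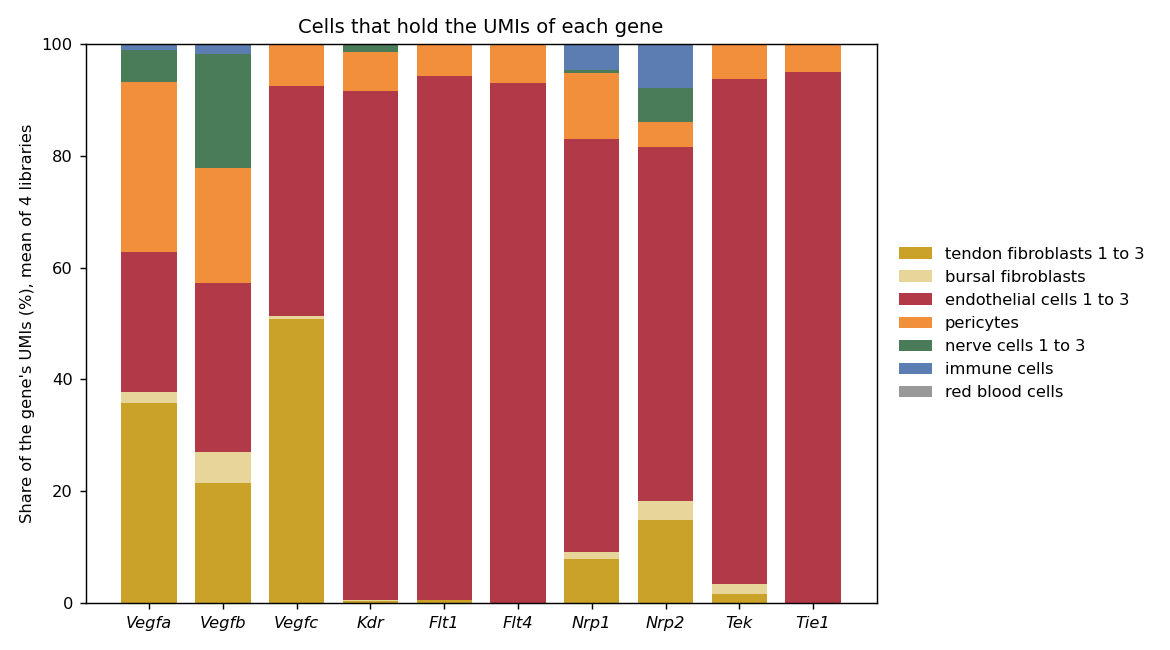
Share of each gene's UMIs (vertical axis, percent, mean of 4 libraries) held by each cell class, with the 3 ligands at the left and the receptors from Kdr on. The endothelial cells take 90.5% to 95% of Kdr, Flt1, Flt4, Tek and Tie1, and the ligand bars are split between endothelial cells, pericytes, fibroblasts and, for Vegfb, nerve cells.

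Vegfa, the main growth signal for blood vessels, had its highest mean level, among populations with replicate libraries, in pericytes, the contractile and supporting cells of vessel walls. Vegfa stood at 129, 166, 40.3 and 75.1 CPM in the pericytes of libraries 1 to 4, a mean of 103 ± 55.9 CPM (SD, n = 4). The 3 tendon fibroblast populations summed had 56.9, 17.2, 29.2 and 26.1 CPM. The pericyte value was the higher of both in each library, although the pericytes of library 3 lay below the fibroblasts of library 1. In the fit across 5540 genes, in which 15.8% of all genes were called higher and 16.6% lower in pericytes at an adjusted p under 0.05, Vegfa was higher in pericytes by 1.16 ± 0.34 on the log2 scale (SE, adjusted p = 0.0208, edgeR). The call was lost with DESeq2 (adjusted p = 0.0533) and without library 1, 2 or 4 (0.0636, 0.0891 and 0.0675, edgeR), with the direction kept.

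Against the endothelial cells, at 39.1, 45.1, 33.0 and 30.3 CPM, the pericyte level of Vegfa was higher by 1.74 ± 0.25 on the log2 scale (adjusted p = 4.3e-04, edgeR). It was higher in 4 of 4 libraries, and the lowest pericyte value lay within the endothelial range. Vegfa did not differ by the test between endothelial cells and tendon fibroblasts, at a log2 difference of -0.43 ± 0.29 (adjusted p = 0.266, edgeR), whose sign is opposite to that of the mean levels of 36.9 and 32.4 CPM. When every cell was reduced to 2400 UMIs, 29 of 104 pericytes held a Vegfa UMI, 27.9% with an exact 95% binomial interval of 19.5% to 37.5%, against 0 of 106 red blood cells, which allows up to 2.83% by the limit of 3 counts used here for every count of 0. Without that reduction 56.1% of pericytes and 0.69% of red blood cells held one. With or without it, most red blood cell UMIs were of their own markers. Here and below, the red blood cell shares are therefore a weak measure of free RNA.

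Among the other populations, Vegfa was at 50.9 ± 4.99 CPM in endothelial cells 2, 41.0 ± 16.5 CPM (n = 3) in tendon fibroblasts 2, 29.4 ± 5.01 CPM in endothelial cells 1 and 24.9 ± 13.4 CPM in tendon fibroblasts 1. Each of these overlapped over libraries with the next in that order, as did pericytes with the population that followed them, nerve cells 3. Tendon fibroblasts 3 had 115 CPM in library 1, with an exact 95% Poisson interval of 79.5 to 160 CPM, above the 35.0 and 52.5 CPM of tendon fibroblasts 1 and 2 in that library. Nerve cells 3 had 18.9, 165 and 20.2 CPM, of which the high value in library 2 rested on 6 UMIs. Nerve cells 1 and red blood cells each held 1 Vegfa UMI. Genes listed as a response to tissue dissociation, 13 with Fos and Jun among them, were also summed with libraries pooled. They reached 11432 CPM in pericytes, 5293 to 8717 CPM in endothelial cells 1 to 3 and 1930 to 7808 CPM in the fibroblast populations. Nerve cells 2 and 3 stood higher, at 18035 and 22980.5 CPM. A link between this response and Vegfa was not tested.

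Vegfb, a ligand of FLT1, was sparse, with 134 UMIs in all cells, and too low for a test in any comparison made. Its levels were 100.03, 17.0 and 32.7 CPM in nerve cells 1, from 6, 3 and 2 UMIs, and 18.0 ± 5.36 CPM in pericytes. Endothelial cells 3 reached 55.6 CPM in library 1, with an interval of 31.1 to 91.6 CPM, against 10.9 and 18.3 CPM in endothelial cells 1 and 2 of that library. In fibroblasts Vegfb was at 0 to 12.8 CPM in each library of tendon fibroblasts 1 and 2, and at 23.6 CPM in tendon fibroblasts 3.

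Vegfc, a ligand of FLT4, gave 152 UMIs, of which fibroblasts and blood vessel endothelium held most. Vegfd, listed among the other ligands, gave 73 UMIs. It was highest at 35.2 CPM in tendon fibroblasts 3, with 32.45 CPM in bursal fibroblasts, libraries pooled. The values that follow are of Vegfc. It stood at 10.2, 40.7 and 40.3 CPM in tendon fibroblasts 2, and at 22.7, 18.7, 47.5 and 6.45 CPM in endothelial cells 1. Those ranges overlapped, and the log2 difference of -0.16 ± 0.37 between endothelial cells and fibroblasts was not called (adjusted p = 0.768, edgeR). Endothelial cells 3, the population with the highest Flt4, had 0 Vegfc UMIs in 326818, which allows up to 9.18 CPM. The nerve, immune and red blood cells also had 0 Vegfc UMIs.

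**Figure D2:**
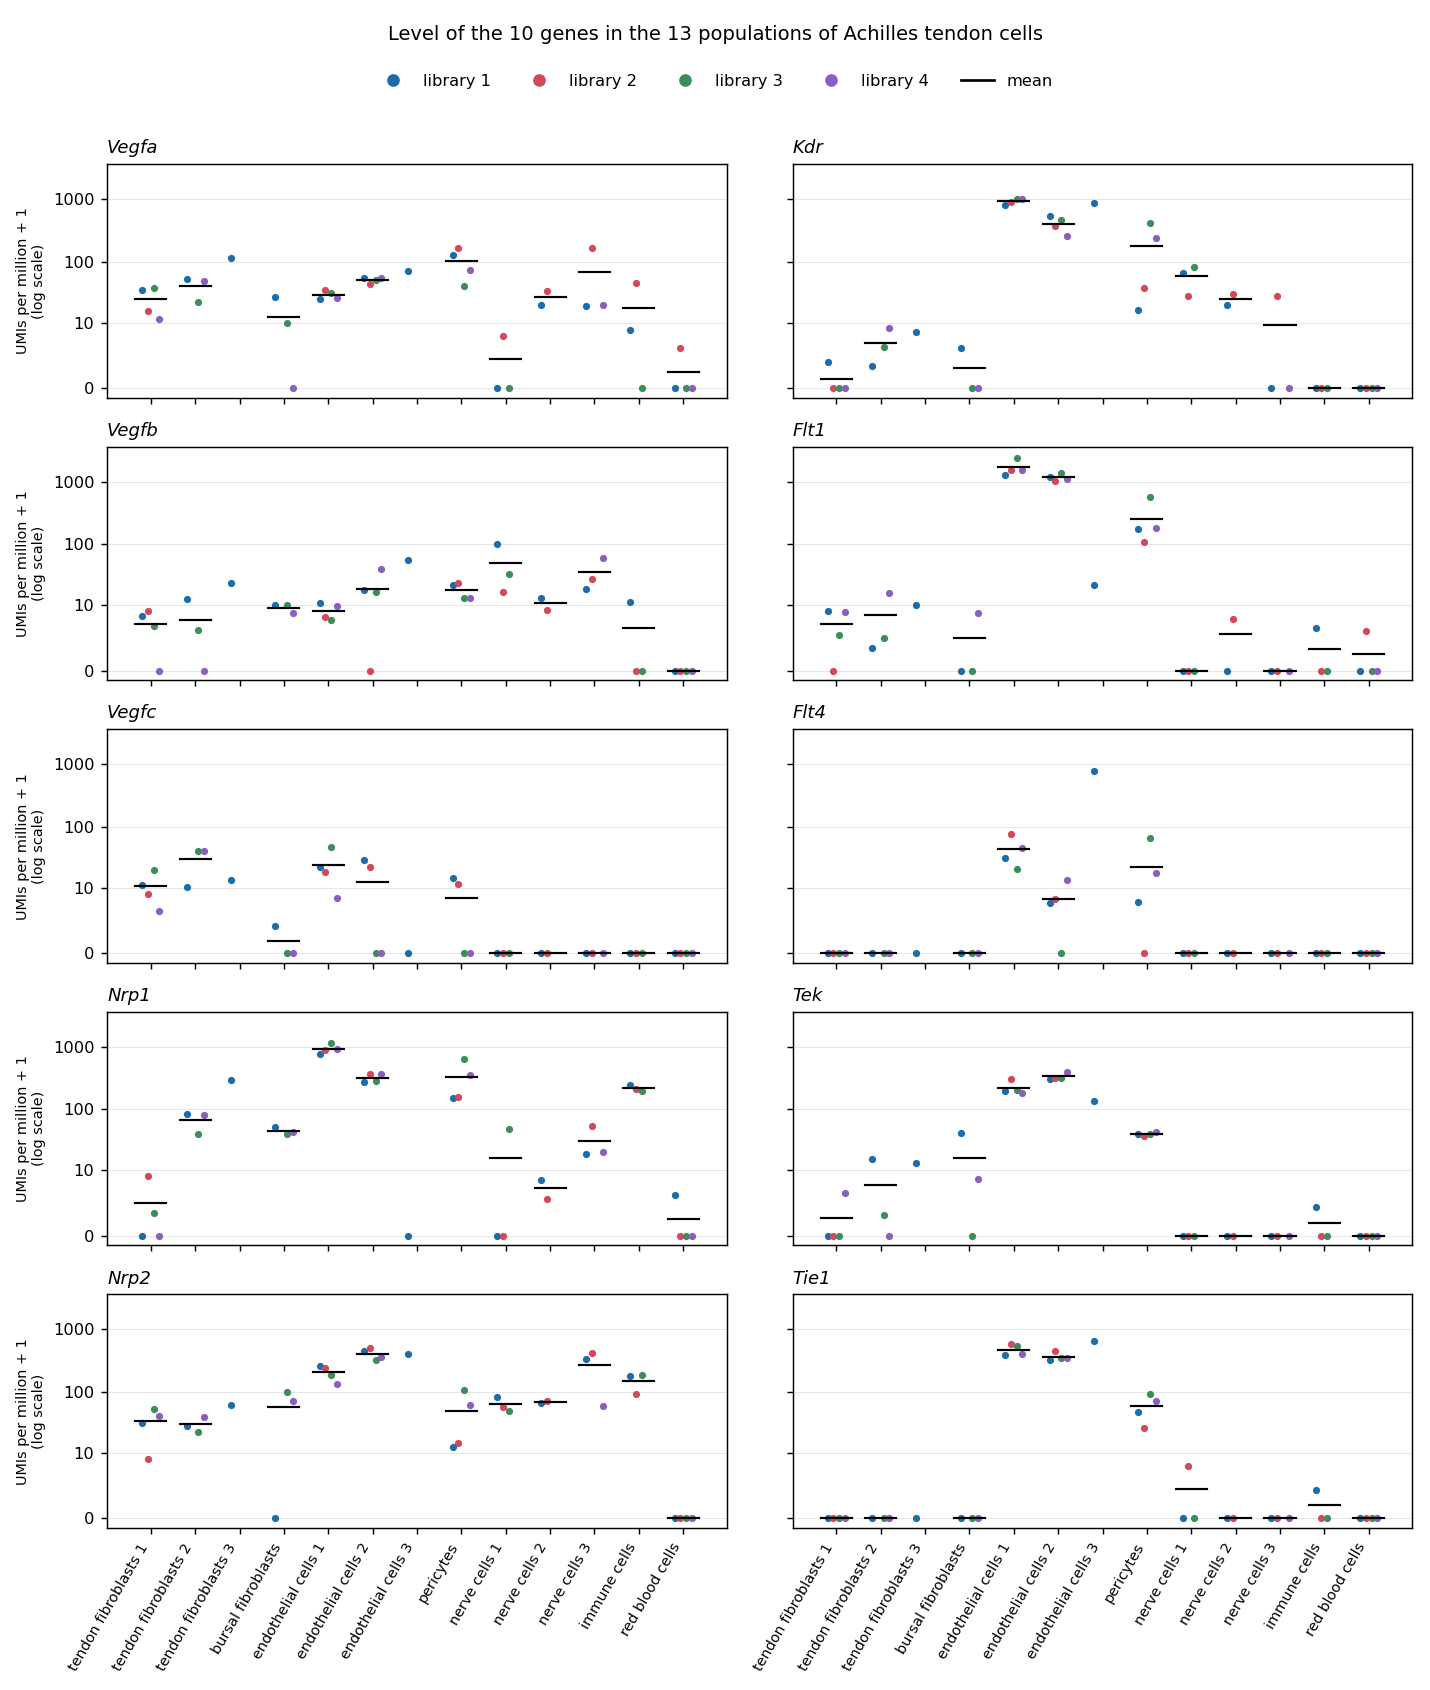
Level of each gene (vertical axes, CPM + 1 on a log scale) in the 13 populations, with 1 point per library and a bar at the mean where 2 or more libraries had 5 or more cells. Kdr, Flt1, Tek and Tie1 are high in endothelial cells 1 and 2, Flt4 is high in endothelial cells 3, and Vegfa stays within a narrower range with pericytes at the top.

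The VEGF and Tie receptors had their highest levels in endothelial populations. Against tendon fibroblasts, in a fit of 7563 genes in which 42.2% were called and 20.9% were called higher and 21.3% lower in endothelial cells, 9 of the 10 genes passed the filter on low counts. Of those 9, the 7 genes for receptors and neuropilins were higher in endothelial cells and the ligands Vegfa and Vegfc were not called. The median log2 difference of the 9 was 5.23, against 0.00 to 2 decimals over all genes tested.

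Kdr, which carries most of the signal of VEGFA, was at 759, 677, 898 and 837 CPM in endothelial cells, while the tendon fibroblast values were 2.35, 0, 1.86 and 2.38 CPM. Flt1 was at 1052, 1305, 1946 and 1388 CPM against 5.28, 11.5, 2.48 and 11.9 CPM. The endothelial values lay above all fibroblast values for both genes. The log2 differences were 8.12 ± 0.28 for Kdr (adjusted p = 1.2e-08, edgeR) and 7.51 ± 0.37 for Flt1 (adjusted p = 4.3e-08, edgeR).

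Flt4 was at 149, 57.2, 139 and 58.1 CPM in endothelial cells summed and had 0 UMIs in tendon fibroblasts, at least 147-fold higher with the fibroblasts set at 3 counts over their libraries. Tie1, at 413, 526, 509 and 397 CPM, also met 0 UMIs in all tendon and bursal fibroblasts and was at least 585-fold higher in endothelial cells than in tendon fibroblasts. Both differences passed the test (adjusted p = 3.9e-06 and 3.5e-07, edgeR). With 0 UMIs in tendon fibroblasts, both genes passed the filter on low counts through the endothelial cells alone. The direction was thus fixed beforehand, and these p-values are no separate support for it. Tek was at 212, 308, 238 and 222 CPM against 9.38, 0, 0.621 and 2.38 CPM, a log2 difference of 5.23 ± 0.42 (adjusted p = 1.8e-06, edgeR).

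The neuropilins were also made by fibroblasts. Nrp1 was at 526, 667, 843 and 794 CPM in endothelial cells, against fibroblast values of 89.7, 109, 21.7 and 59.4 CPM, a log2 difference of 3.07 ± 0.38 (adjusted p = 5.3e-05, edgeR). Nrp2 was at 278 ± 73.6 CPM against 34.4 ± 8.30 CPM, a difference of 2.48 ± 0.24 (adjusted p = 7.7e-06, edgeR). No endothelial library overlapped with a fibroblast library in either gene.

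The proximal promoters of Tie1, Kdr, Flt1 and Tek are shown because these 4 receptor genes were high in both endothelial cells 1 and endothelial cells 2. ETS factors, a family that includes the endothelial factors ERG and FLI1, bind DNA around the core GGAA. In the sequences below, from 250 bases before to 50 bases after the transcription start in RefSeq annotation on GRCm38.p6, capitals mark that core on either strand, so that TTCC is the core on the other strand. The stretches are chr4:118489800-118490099 (minus strand) for Tie1, chr5:75978406-75978705 (minus strand) for Kdr, chr5:147725962-147726261 (minus strand) for Flt1 and chr4:94739039-94739338 (plus strand) for Tek.
Tie1: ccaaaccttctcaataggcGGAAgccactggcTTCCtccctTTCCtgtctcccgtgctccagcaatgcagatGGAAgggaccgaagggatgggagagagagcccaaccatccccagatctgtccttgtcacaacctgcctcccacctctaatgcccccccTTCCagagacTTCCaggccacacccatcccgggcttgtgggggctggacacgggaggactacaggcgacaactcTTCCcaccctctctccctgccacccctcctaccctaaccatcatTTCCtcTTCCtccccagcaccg
Kdr: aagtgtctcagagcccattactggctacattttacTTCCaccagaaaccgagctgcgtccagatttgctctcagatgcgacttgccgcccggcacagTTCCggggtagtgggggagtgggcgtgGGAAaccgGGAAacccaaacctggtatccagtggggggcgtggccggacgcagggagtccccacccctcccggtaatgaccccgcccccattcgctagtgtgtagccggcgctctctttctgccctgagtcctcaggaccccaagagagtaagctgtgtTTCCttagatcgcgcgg
Flt1: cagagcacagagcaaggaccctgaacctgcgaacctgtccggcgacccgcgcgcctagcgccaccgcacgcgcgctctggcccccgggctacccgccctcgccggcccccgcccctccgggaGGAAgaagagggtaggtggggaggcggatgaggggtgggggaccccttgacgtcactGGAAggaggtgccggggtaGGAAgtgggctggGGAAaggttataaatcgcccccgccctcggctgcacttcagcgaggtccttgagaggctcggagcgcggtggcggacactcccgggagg
Tek: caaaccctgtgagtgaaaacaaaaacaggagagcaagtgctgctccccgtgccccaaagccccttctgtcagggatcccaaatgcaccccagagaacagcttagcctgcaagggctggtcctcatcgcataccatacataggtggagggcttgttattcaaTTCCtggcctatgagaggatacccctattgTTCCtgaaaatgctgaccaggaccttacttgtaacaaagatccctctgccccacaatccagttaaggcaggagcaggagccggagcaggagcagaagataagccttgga
The Tie1 stretch held 9 matches of GGAA, that of Kdr 5, that of Flt1 4 and that of Tek 2. The core is short: 96% of 32851 promoters of this length held it, with a median of 3 matches. The longer form AGGAAG, which overlaps with GGAA and stood in 35.4% of promoters, was found 2 times in Tie1, 2 times in Flt1 and 1 time in Nrp1, and not in Kdr, Tek or Flt4. The core of the hypoxia response element, ACGTG, present in 19.6% of promoters on either strand, was in none of these windows. Of the 2 Vegfa starts, the one at the upstream end of the gene, chr17:46032328-46032627, held 0 matches. The other, chr17:46025114-46025413, held 1 and lies inside the gene, which spans chr17:46016993-46032369 on the minus strand. A match describes letters only and shows no binding.

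Within the endothelium, the receptors and neuropilins were divided among the 3 populations. Endothelial cells 1 (190 cells) and 2 (74 cells) were compared in 4 libraries over 5126 genes, of which 18.2% were called, 7.74% higher and 10.5% lower in endothelial cells 1. Of the 10 genes, 7 passed the filter: Kdr and Nrp1 were higher in endothelial cells 1, Nrp2 and Tek were higher in endothelial cells 2, and Vegfa, Flt1 and Tie1 were not called.

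Nrp1, the co-receptor that joins KDR in binding VEGFA, stood at 762, 898, 1124 and 925 CPM in endothelial cells 1, and endothelial cells 2 had 275, 364, 286 and 365 CPM. Kdr stood at 816, 887, 1013 and 989 CPM against 529, 367, 471 and 257 CPM. All 4 libraries of endothelial cells 1 lay above all 4 of endothelial cells 2, by 1.41 ± 0.17 (Nrp1, adjusted p = 1.2e-05, edgeR) and 1.09 ± 0.19 (Kdr, adjusted p = 4.6e-04, edgeR) on the log2 scale.

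Nrp2, the neuropilin known from veins and lymphatic vessels, ran the other way, with 260.1, 241, 190.0 and 132 CPM in endothelial cells 1 and 448, 509, 319.6 and 365 CPM in endothelial cells 2. The groups did not overlap and the log2 difference was -1.06 ± 0.18 (adjusted p = 4.2e-04, edgeR). Tek, at 195, 306, 206 and 184 CPM against 311, 320.2, 319.6 and 392 CPM, differed by -0.63 ± 0.19 (adjusted p = 0.0287, edgeR). The Tek call was the weakest of these, and over 10 alternatives its adjusted p ran from 0.027 to 0.225, with the call lost under 7 of them, among them DESeq2 (0.129) and the fits without library 1, 3 or 4 (0.187, 0.0645 and 0.0979, edgeR). The setting of 10 or more cells per sum, also among the 7, is the same fit as that without library 4.

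Flt1 was at 1679 ± 483 CPM in endothelial cells 1 and at 1161 ± 143 CPM in the second population, with overlapping libraries and a log2 difference of 0.42 ± 0.15 (adjusted p = 0.0617, edgeR). Flt1 passed the threshold without library 1 (adjusted p = 0.0442, edgeR), without the filter on low counts (0.0365) and with RLE size factors (0.0498). Tie1 differed by 0.27 ± 0.17 (adjusted p = 0.325, edgeR). Vegfa was lower in endothelial cells 1 in 4 of 4 libraries, with no overlap, yet its difference of -0.88 ± 0.34 on 56 and 42 UMIs was not called (adjusted p = 0.094, edgeR). Flt4 gave 87 UMIs in the first population and 5 in the second, at 43.7 ± 24.2 and 6.26 ± 5.56 CPM with no overlap of libraries, and was too low for the test.

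**Figure D3:**
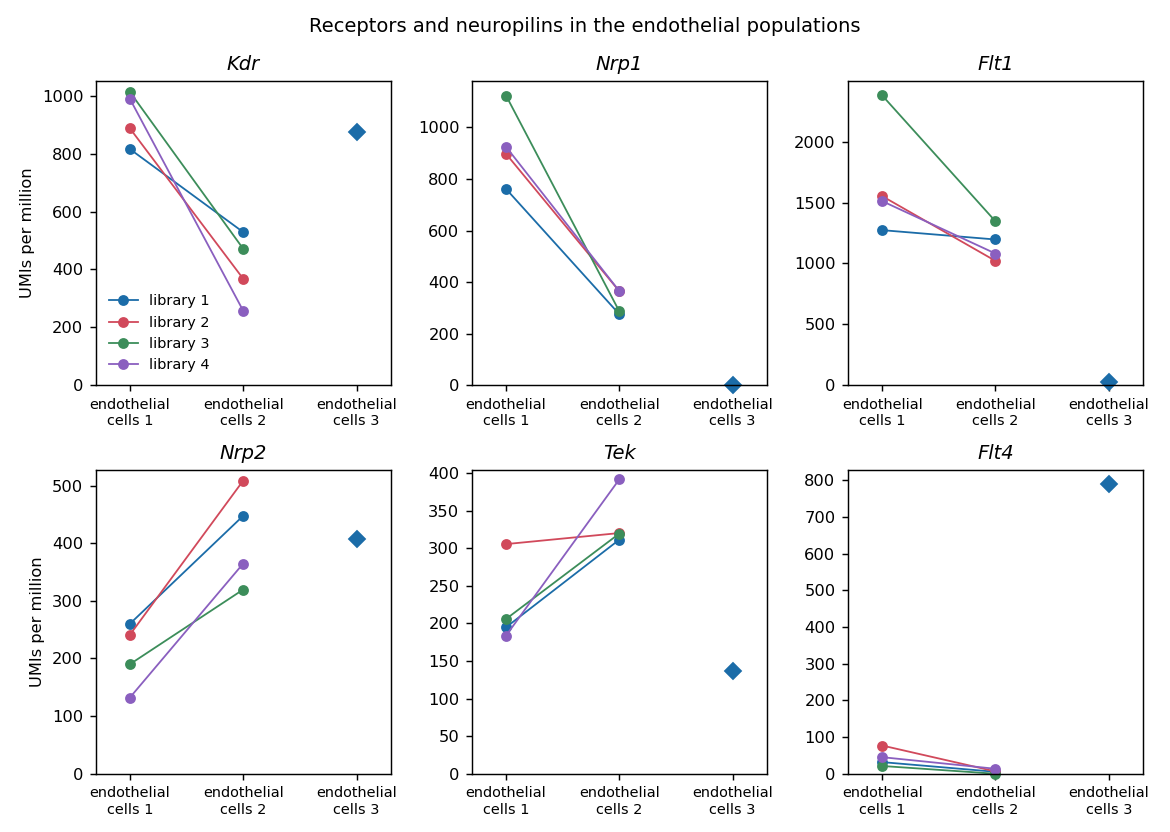
Levels of 6 genes (vertical axes, CPM) in the endothelial populations, with lines joining the values of a library and a diamond for endothelial cells 3, which had 5 or more cells in library 1 alone. Kdr and Nrp1 fall from endothelial cells 1 to 2 in all 4 libraries, Nrp2 and Tek rise, and endothelial cells 3 combine high Kdr, Nrp2 and Flt4 with Flt1 and Nrp1 near 0.

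Endothelial cells 3, the population with lymphatic markers, had a receptor set of its own. In library 1, Flt4 stood at 789 CPM (exact 95% Poisson interval 686 to 902), against 31.6 CPM in endothelial cells 1 and 5.23 CPM in endothelial cells 2 of the same library. Kdr was at 874 CPM (766 to 993) and Tie1 at 641 CPM (549 to 744), beside 816 and 386 CPM in endothelial cells 1. Flt1, at 22.2 CPM (8.15 to 48.4), was far below the 1273 and 1196 CPM of the other endothelial populations, and Nrp1 had 0 UMIs in this and the other libraries, 0 in 326818, which allows up to 9.18 CPM. Nrp2, at 407 CPM (335 to 491), lay between the 260.1 and 448 CPM of endothelial cells 1 and 2. The intervals cover counting error only, and with 26 cells of 1 library no test was made. The other 10 cells, from libraries 2 to 4, held 50 of the 263 Flt4 UMIs and 0 Flt1 and Nrp1 UMIs.

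The same UMIs were also counted cell by cell, which gives no separate evidence of this division. With 0 Nrp1 UMIs in endothelial cells 3, a pair with Nrp1 could not occur there. With every cell reduced to 2400 UMIs, 122 of 176 cells of endothelial cells 1 held both Kdr and Flt1, and 0 of 32 of endothelial cells 3 did. Kdr with Nrp1 was found together in 111 of 176 and in 0 of 32 cells, and Flt4 with Nrp2 in 12 of 176 and in 20 of 32. The endothelium also held ligand: 14 of 176 reduced cells of endothelial cells 1 had a Vegfa UMI, 11 of them beside Kdr.

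Pericytes showed receptor UMIs as well, and these lay in few cells. Against tendon fibroblasts, 6 of the 10 genes passed the filter and 5 were higher in pericytes, beside 32.5% of all genes called in either direction: Vegfa, Flt1, Nrp1, Tek and Tie1. Flt1 stood at 174, 111, 565 and 186 CPM in pericytes, and Kdr, which did not pass the filter, at 16.3, 37.9, 417 and 239 CPM. These values lay above the fibroblast values of each library and differed strongly between libraries, while Tek was even, at 39.9, 37.9, 40.3 and 44.2 CPM. The log2 differences from fibroblasts were 5.14 ± 0.50 for Flt1 (adjusted p = 1.2e-05, edgeR), 2.75 ± 0.59 for Tek (adjusted p = 0.00383, edgeR) and 1.78 ± 0.55 for Nrp1 (adjusted p = 0.0282, edgeR), and Tie1 was at least 63.3-fold higher (adjusted p = 8.7e-05, edgeR). Tie1, with 0 UMIs in tendon fibroblasts, passed the filter through the pericytes alone, so its direction was fixed beforehand. The Nrp1 call was lost without library 4 (adjusted p = 0.118, edgeR). Nrp2 differed by -0.33 ± 0.45 and was not called (adjusted p = 0.627, edgeR).

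Markers of endothelium moved with these receptor UMIs. Of the 107 pericytes, 15 held UMIs of 5 or 6 of the 6 endothelial markers Pecam1, Cdh5, Cldn5, Egfl7, Emcn and Esam, and the other 92 held 0, 1 or 2. The 15 cells came from all 4 libraries (8, 3, 2 and 2) and held 106 of the 107 Kdr UMIs, 213 of 218 of Flt1, 47 of 48 of Tek, 56 of 58 of Tie1, 10 of 12 of Flt4 and 12 of 12 of Vegfc. They held 153 of 266 Nrp1 UMIs and 35 of 148 Vegfa UMIs. Their median depth was 20196 UMIs against 8700 in the rest, and pericyte and smooth muscle markers summed to 12190 CPM in them against 30158 CPM in the rest. Whether these barcodes held more than 1 cell was not tested, and the division at 3 markers was set after the values were seen.

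Without those 15 cells, the remaining pericytes had 135, 186, 26.0 and 62.9 CPM of Vegfa, a mean of 102 ± 71.6 CPM beside 103 ± 55.9 CPM with them. Kdr was left with 1 UMI, Flt1 with 5, Tek with 1 and Tie1 with 2. Nrp1 was still found, at 93.1, 160.3, 391 and 126 CPM. In the fit against fibroblasts without cells holding 3 or more endothelial markers, 3 of the 10 genes passed the filter and 1 was called, Vegfa, by 1.22 (adjusted p = 0.0107, edgeR), while Nrp1 differed by 0.81 and was not called (adjusted p = 0.168, edgeR). The main fit, with those cells, called 32.5% of all genes, and the share without them is not given here.

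**Figure D4:**
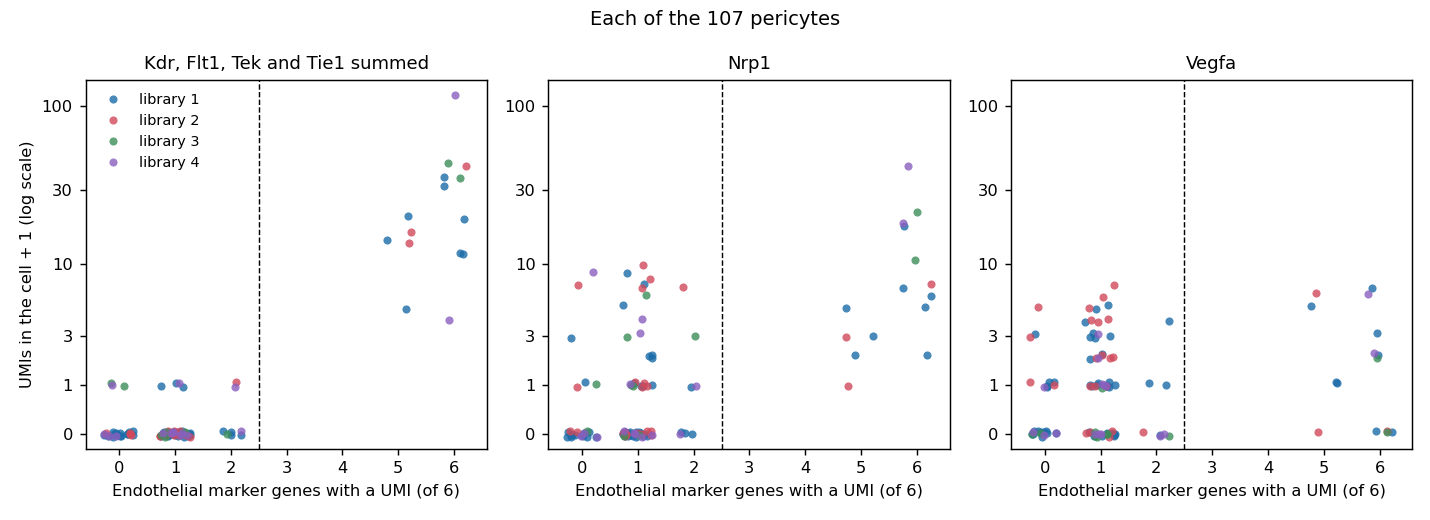
UMIs in each of the 107 pericytes (vertical axes, UMIs + 1 on a log scale, points moved slightly at random for visibility) by the number of endothelial markers with a UMI in that cell (horizontal axes), colored by library. The 92 cells left of the dashed line hold at most 1 UMI of the 4 receptors summed and the 15 cells to its right hold 4 to 115, while Nrp1 and Vegfa UMIs lie on both sides.

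Compared with endothelial cells, in a fit of 5819 genes with 34.1% called, 8 of the 10 genes passed the filter and all 8 were called. Vegfa was the 1 that was higher in pericytes, beside 16.2% of all genes, and Kdr, Flt1, Flt4, Nrp1, Nrp2, Tek and Tie1 were lower, beside 17.9%. Their log2 differences ran from -1.25 ± 0.24 for Nrp1 to -3.03 ± 0.57 for Flt4 (adjusted p = 0.00249 and 0.00211, edgeR). Without the 15 cells the same 8 calls were made, and the Kdr difference went from -2.80 to -8.92. The reverse mixture was measured too: 24 of 190 cells of endothelial cells 1, 12 of 74 of endothelial cells 2 and 1 of 36 of endothelial cells 3 held UMIs of 3 or more pericyte markers. Vegfa stood at 25.9 CPM in the 24 and 28.8 CPM in the other 166, and at 63.8 CPM in the 12 and 44.6 CPM in the other 62, over all libraries.

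Among the fibroblasts, Nrp1 differed between populations. Tendon fibroblasts 1 held 2 Nrp1 UMIs in 173 cells, and tendon fibroblasts 2 held 112 in 156 cells, at 85.8, 39.5 and 80.6 CPM in libraries 1, 3 and 4. In the 3 libraries with both, tendon fibroblasts 2 had 111 UMIs against 1, a CPM ratio of 103 with an exact 95% interval of 18.1 to 4097. Of 7043 genes 8.12% were called, 4.33% higher and 3.79% lower in tendon fibroblasts 1, 4 of the 10 passed the filter, and of those 4 Nrp1 was called, with a log2 difference of -6.08 ± 0.65 (adjusted p = 4.9e-04, edgeR). Vegfa, Vegfc and Nrp2 differed by -0.03 ± 0.42, -0.81 ± 0.50 and 0.81 ± 0.34 and were not called (adjusted p = 0.992, 0.46 and 0.222, edgeR). Tek was too low for the test, at 1 UMI against 13, a CPM ratio of 12.0 with an exact 95% interval of 1.81 to 512 and overlapping libraries. The 6 endothelial markers summed to 23.8 CPM in the first population and 18.0 CPM in the second, with libraries pooled. The cause of the Nrp1 difference was not tested.

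Tendon fibroblasts 3 reached 290.3 CPM of Nrp1 in library 1, with an interval of 232 to 358 CPM, and 19 of 46 reduced cells held a UMI. Bursal fibroblasts had 52.4, 39.9 and 42.7 CPM. A trace of Tek was found in bursal fibroblasts of library 1, 25 UMIs at 42.3 CPM, against 0 and 7.12 CPM in libraries 3 and 4, and 10 of the 40 cells held one. At 2400 UMIs per cell it was 1 of 37 cells, in a population with a median depth of 20284 UMIs.

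Immune cells, whose leading markers were those of macrophages, held UMIs of both neuropilins and few of the other genes. Nrp1 stood at 248, 209 and 198 CPM and Nrp2 at 179.7, 92.8 and 185 CPM. Kdr, Flt4 and Vegfc had 0 UMIs in 708393, which allows up to 4.23 CPM, and Flt1, Tek and Tie1 had 2, 1 and 1. Vegfa and Vegfb had 6 UMIs each, with Vegfa at 7.41, 46.4 and 0 CPM and Vegfb at 11.1, 0 and 0 CPM. After reduction to 2400 UMIs, 42.5% of immune cells held Nrp1 (37 of 87, exact interval 32.0% to 53.6%), against 0 of 106 red blood cells. The unreduced shares were 63.0% and 0.69%, at median depths of 7108.5 and 4132 UMIs.

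Nerve cells, in which Schwann cell and nerve markers stood high, had Nrp2 and some Kdr. Against tendon fibroblasts, in a fit of 4874 genes with 28.7% called, 12.4% higher and 16.4% lower in nerve cells, 2 of the 10 genes passed the filter. Nrp1 was lower in nerve cells, at 17.3 ± 14.5 against 70.0 ± 38.1 CPM, by a log2 difference of -3.18 ± 0.74 (adjusted p = 0.0114, edgeR). It was lower in 3 of 4 libraries, and the call was lost without library 1 or 2 (adjusted p = 0.0889 and 0.125, edgeR). Nrp2 was above the fibroblast level in 4 of 4 libraries with no overlap, at 85.3 ± 31.8 against 34.4 ± 8.30 CPM, and missed the threshold at 1.06 ± 0.36 (adjusted p = 0.06, edgeR). It passed without library 4 (adjusted p = 0.0168, edgeR) and without the library as a block (0.0111). By population, Nrp2 was 271 ± 186 CPM (n = 3) in nerve cells 3 and 63.1 ± 18.0 CPM (n = 3) in nerve cells 1.

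Kdr was found in nerve cells 1 at 66.7, 28.4 and 81.7 CPM, from 14 UMIs in 12 of 49 cells, and in nerve cells 2 from 15 UMIs in 12 of 46 cells, at median depths of 4887 and 10370.0 UMIs. After reduction to 2400 UMIs, 9 of 47 cells of nerve cells 1 held Kdr, 19.1% with an exact interval of 9.15% to 33.3%, and 3 of 45 of nerve cells 2, against 0 of 87 immune cells and 0 of 106 red blood cells. No nerve cell held UMIs of 3 or more endothelial markers, Flt1, Tek and Flt4 had 0 UMIs in nerve cells 1 and Tie1 had 1, and the 6 endothelial markers summed to 40.0 CPM there. These Kdr levels were too low for a test.

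The other ligands listed were of the VEGF, angiopoietin and class 3 semaphorin families. Pgf, Angpt1 and Angpt4 were highest in pericytes, the population with the highest mean Vegfa among those with replicate libraries. Pgf, a FLT1 ligand, was at 136.5 CPM in pericytes with libraries pooled, 45.9 CPM in endothelial cells 3 and 32.6 CPM in tendon fibroblasts 2. Angpt1, which activates TEK, was at 31.0 CPM in pericytes, 27.1 CPM in tendon fibroblasts 3 and 19.7 CPM in the second tendon population, and was lower in tendon fibroblasts 1 than in 2, at 1 UMI against 35 (adjusted p = 0.00802, edgeR). Angpt2, which can block TEK, was at 354.9 CPM in endothelial cells 3 and at 56.3 ± 22.1 CPM in pericytes against 1.76 ± 3.52 CPM in tendon fibroblasts (adjusted p = 8.7e-04, edgeR). With libraries pooled, the tendon fibroblasts were not alike, at 0.567, 0 and 29.8 CPM of Angpt2 in populations 1, 2 and 3. The pericyte value includes the 15 cells with endothelial markers, and Angpt2 without them is not given here. Of the list of other ligands, 8 were tested between endothelial cells and fibroblasts, with 3 higher and 4 lower in endothelial cells, beside 20.9% higher and 21.3% lower over all genes. Among those lower were the semaphorins Sema3c (0.301 ± 0.601 against 250.3 ± 70.9 CPM, adjusted p = 2.6e-08, edgeR) and Sema3e (0 UMIs against 389), and among those higher was Sema3g (434 UMIs against 0). Sema3b was highest in nerve cells, at 944 ± 368 against 36.5 ± 11.5 CPM in tendon fibroblasts (adjusted p = 1.8e-04, edgeR).

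**Figure D5:**
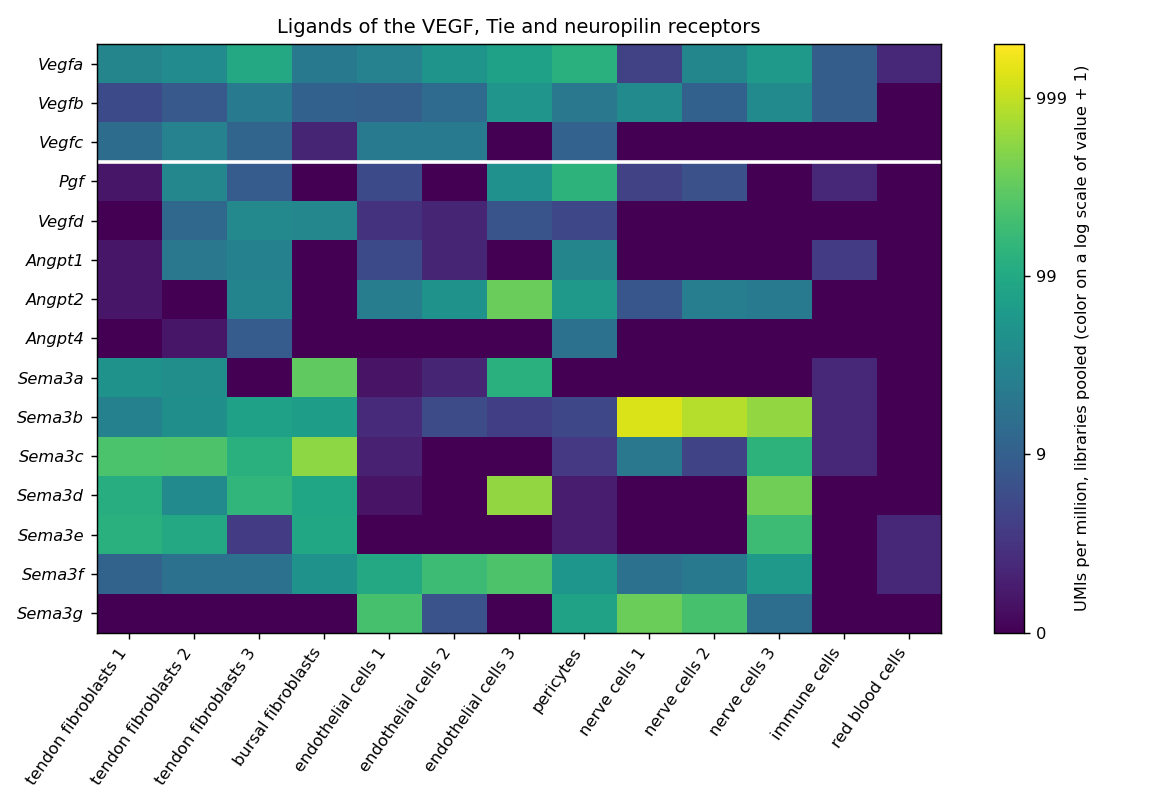
Levels of the 3 VEGF ligands (above the white line) and of 12 other ligands (rows) in the 13 populations (columns). The 12 are of the VEGF, angiopoietin and class 3 semaphorin families. Values are CPM over all cells of a population with libraries pooled, colored on a log scale of value + 1. Pgf peaks in pericytes at 136.5 CPM, Angpt2 in endothelial cells 3 at 354.9 CPM, and the semaphorins are spread over fibroblasts, nerve cells and endothelium.

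Of 6 genes tested that process the ligands, 3 were lower in endothelial cells than in fibroblasts, 1 was higher and 2 were not called, beside 21.3% lower and 20.9% higher over all genes. Adamts2, a relative of the protease that activates VEGFC, was at 2.45 ± 1.0 against 554 ± 157 CPM (adjusted p = 1.1e-08, edgeR), and Svep1, a matrix protein needed for lymphatic vessels, was at 0.632 ± 1.26 against 55.5 ± 25.04 CPM (adjusted p = 1.7e-06, edgeR). Svep1 was also lower in tendon fibroblasts 1 than in 2, at 7.25 ± 2.35 against 108 ± 38.5 CPM (adjusted p = 5.0e-04, edgeR).

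Partners of the receptors went both ways. Of 16 co-receptors and receptor phosphatases tested, 9 were higher in endothelial cells than in fibroblasts and 6 lower, beside the same 20.9% and 21.3% over all genes. Among those higher were Ptprb, the phosphatase that restrains TEK, at 1894 ± 122 against 25.2 ± 14.0 CPM (adjusted p = 1.0e-07, edgeR) and Cdh5, the junction cadherin that binds KDR, at 1242 ± 149 against 9.43 ± 5.75 CPM (adjusted p = 3.7e-08, edgeR). Among those lower were the heparan sulphate carriers Gpc1, at 0.455 ± 0.582 against 77.2 ± 30.6 CPM, and Sdc2, at 2.14 ± 2.85 against 208 ± 64.8 CPM (adjusted p = 3.0e-07 and 1.1e-07, edgeR). Of 21 genes of the relay inside the cell, 11 were higher and 3 lower, beside 20.9% and 21.3% over all genes, with Nos3, the endothelial nitric oxide synthase, at 120.2 ± 25.5 against 3.02 ± 5.64 CPM (adjusted p = 2.6e-06, edgeR). Of 16 endothelial transcription factors tested in the same fit, 15 were higher, 0 lower and 1 not called, beside the same shares over all genes. That list was chosen for the endothelium and the populations were formed from the same counts. Its count is therefore a description and no separate support.

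Other lists were compared between the endothelial populations themselves. All 7 tested genes known as induced by VEGF were called between endothelial cells 1 and 2, 2 higher and 5 lower in endothelial cells 1, beside 7.74% higher and 10.5% lower over all genes. Esm1, a tip cell gene, had 102 UMIs against 0, and Rcan1, which restrains calcineurin, was at 33.1 ± 5.19 against 166 ± 64.0 CPM (adjusted p = 2.4e-05, edgeR). Of 18 relay genes tested, 2 were higher in endothelial cells 1, 1 was lower and 15 were not called, beside the same shares over all genes. Plcg1, which acts just below KDR, was at 142.9 ± 16.2 against 53.3 ± 27.9 CPM (adjusted p = 0.00634, edgeR). Foxo1, which AKT holds out of the nucleus, was lower in endothelial cells 1, with 80.7 ± 23.6 against 225 ± 50.3 CPM (adjusted p = 3.9e-04, edgeR). Of 14 endothelial transcription factors tested, 5 were higher in endothelial cells 1, 2 were lower and 7 were not called, beside the same shares over all genes. The venous regulator Nr2f2 was lower there, with 146 ± 44.2 against 622 ± 75.3 CPM, and Sox17, an arterial regulator, was higher, at 322 ± 71.6 against 101 ± 40.6 CPM (adjusted p = 8.9e-07 and 4.8e-05, edgeR).

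Among the oxygen sensing genes, whose products control Vegfa in many tissues, Epas1 (HIF2A) was high in both vessel classes. It stood at 999 ± 120 CPM in endothelial cells and 960.0 ± 128 CPM in pericytes against 46.8 ± 9.01 CPM in tendon fibroblasts (adjusted p = 4.3e-08 and 5.4e-07, edgeR). Egln3, a prolyl hydroxylase that marks HIF proteins for decay, had its highest pooled level in tendon fibroblasts 1, with 42.8 CPM in endothelial cells 3. Over libraries it was at 130.1 ± 50.5 CPM in tendon fibroblasts 1 against 3.84 ± 6.66 CPM in tendon fibroblasts 2 (adjusted p = 3.9e-04, edgeR). A link between Egln3 and Vegfa was not tested. Of 7 oxygen sensing genes tested between endothelial cells and fibroblasts, 1 was higher, 1 lower and 5 were not called. Over all genes 20.9% were higher and 21.3% lower.

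The genes whose levels over the 13 populations were most like those of a member, of 7077 genes considered, were Gadd45g (Pearson r = 0.951), Hes1 (0.925) and Nudt4 (0.916) for Vegfa. For Kdr they were Gata2 (0.952), Egfl7 (0.946) and Podxl (0.944), for Flt4 Btnl9 (0.949), Cldn5 (0.948) and F2rl1 (0.931), and for Tek Adcy4 (0.968), Lrrc32 (0.962) and Hspa12b (0.954). Between members, r was 0.901 for Kdr with Tie1, 0.18 for Kdr with Nrp1 and 0.419 for Kdr with Vegfa. These describe 13 points that share libraries and depth, on log2(CPM + 1).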

How the data were processed

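Single-cell RNA was counted as UMIs in 4 libraries of mouse Achilles tendon. The authors deposited a table of UMI counts per gene and cell, made with Cell Ranger on mm10 and handled in R 3.5.2 with Seurat 2.3.4, per the submitters' processing notes. The table of natural log values the authors deposited holds the natural log of 1 plus 10000 times a count over the cell's total, which was recomputed from the counts to within 5.0e-10, and it was used for that check only. Cell populations were taken from the authors' deposited annotation. How cells were filtered and clustered, and how doublets were treated, is not given in the sources used here, and no doublet caller was run. The shallowest cell held 1010.0 UMIs. Genes listed under repeated names, 4 entries with 0.0186% of UMIs, were left out.

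Counts were summed per population and library where 5 or more cells were present. The 6 comparisons, each over 3 or more libraries, were fitted across all genes past the filter of edgeR (filterByExpr) with TMM scaling, the library as a block and tested two-sided by the quasi-likelihood method in edgeR 4.0.16, run in R 4.3.3 beside limma 3.58.1. P-values were adjusted by Benjamini and Hochberg over all genes tested, with calls at 0.05. The SE given with a log2 difference is its absolute value over the square root of the F statistic of that test. It is thus derived from the test and not a separate estimate. Sums of the same library share that library's cells and preparation, which is where the pairing comes from, and their deviations correlated at 0.004 to 0.195. Fold changes against 0 UMIs are bounds computed with 3 counts over the libraries of that side. Shares of cells were computed after drawing 2400 UMIs from each cell, which left out 114 shallower cells. The limit that a count of 0 allows is 3 counts throughout. Intervals are exact at 95% and, like the bounds and limits, cover counting error only. The alternatives were RLE size factors, DESeq2 1.42.0, no filter on low counts, no block, 10 or more cells per sum, reduced cells, each library left out and, chosen after seeing the data, cells outside the endothelium with UMIs of 3 or more endothelial markers left out. Shares called over all genes are given for the main fits only. The fits were tested on simulated data. Python 3.11.15 with numpy 2.4.6, pandas 2.3.3, scipy 1.17.1 and matplotlib 3.10.9 was used for the rest.

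The 10 genes and the lists of pathway and marker genes were chosen with earlier results of these data known. Named beside the 10 were, of each pathway list and comparison, up to 4 called genes with the largest fold change, and for Vegfa, Kdr, Flt4 and Tek the 3 genes most alike among those with 50 or more CPM in a population and UMIs in 3 or more libraries. Levels of the other ligands listed are given as a description of where they were found.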

Additional observations from a re-analysis of the deposited data

Results flagged for a closer look

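The rule for 1 library far from the other 3 flags about 1 in 20 sets of normally distributed values. It always flags a set with UMIs in 1 library and 0 in the others. It flagged 7 of 41 sets of 4 library values, a share that therefore cannot be set against 1 in 20. Of these, 5 rested on 1 UMI in 1 library with 0 in the others: Vegfa in red blood cells (3.35 CPM, library 2), Flt1 in red blood cells (3.35 CPM, library 2), Nrp1 in red blood cells (3.44 CPM, library 1), Kdr in tendon fibroblasts 1 (1.59 CPM, library 1) and Tek in tendon fibroblasts 1 (3.78 CPM, library 4). Flt1 in pericytes stood at 565 CPM in library 3, from 42 UMIs, against 111 to 186 CPM in the other libraries. Tek in endothelial cells 2 stood at 392 CPM in library 4, from 29 UMIs, against 311 to 320 CPM.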

How the results depend on the processing

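Some alternatives repeat another fit. With 10 or more cells per sum, endothelial cells against tendon fibroblasts and both pericyte comparisons kept all libraries, which repeats the main fit. The other comparisons then lost library 4, which repeats the fit without it. Leaving out cells with endothelial markers removed none from endothelial or nerve cells against tendon fibroblasts, so those values could not change. All are counted below. Of the fold changes of the 10 genes under the alternatives, 333 kept their direction and side of the threshold, 15 lost the call, 6 gained it and 5 changed sign. Those 5 were never called: Vegfc between endothelial cells and tendon fibroblasts (0.05 without library 4, range -0.12 to 0.05 over libraries 2 to 4 left out in turn, and too low for the test without library 1), Nrp2 between pericytes and tendon fibroblasts (0.31 without library 1, range -0.82 to 0.31) and Vegfa between tendon fibroblasts 1 and 2 (0.20 with 10 or more cells per sum, 0.17 and 0.20 without libraries 1 and 4, range -0.65 to 0.20). With cells reduced to 2400 UMIs, fewer genes could be tested and calls went from 3192 to 1094 (endothelial cells against fibroblasts), 1800 to 478 (pericytes against fibroblasts, with 0 of the 10 genes tested and 0 called), 1985 to 678 (pericytes against endothelial cells), 933 to 278 (endothelial cells 1 against 2) and 572 to 345 (tendon fibroblasts 1 against 2, again 0 of the 10 called). Without the filter on low counts the calls were 3046 (pericytes against endothelial cells), 2486 in place of 1400 (nerve cells against fibroblasts, 3 of the 10 genes called) and 1073 (tendon fibroblasts 1 against 2). DESeq2 called 570 (endothelial cells 1 against 2) and 371 (tendon fibroblasts 1 against 2). With 10 or more cells per sum, nerve cells against fibroblasts gave 2288 calls and 3 of the 10 genes. Without the replicate block that comparison called 2 of the 10 genes in place of 1, and the block changed no other call of the 10 genes. Without cells holding endothelial markers, 1 of the 10 genes was called between pericytes and fibroblasts in place of 5. Leaving out 1 library at a time gave 838 to 2288 calls for nerve cells (0 to 3 of the 10 genes), 484 to 997 for endothelial cells 1 against 2, 362 to 529 for tendon fibroblasts 1 against 2, and 3 to 5 of the 10 genes for pericytes against fibroblasts. The nerve cell calls rose without library 4 and were fewer without each of the others. Apart from the reduced cells, where fewer genes were tested, the cause was not tested. Levels moved by more than the library SD in 7 of 550 cases, among them Tek in pericytes (18.0 CPM as a mean over single cells). Depth limits Vegfb and Vegfc most, with 134 and 152 UMIs in all.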
